A study of Mus musculus with 12 samples.

Results

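The proteasome genes described here are the subunits and base chaperones named Psma, Psmb, Psmc or Psmd, without the immunoproteasome subunits Psmb8, Psmb9 and Psmb10. They are defined by name, through the mouse symbol of each array probe. The naming rule holds no measured value, but the gene group was picked with earlier results of these data known. Of 36 such genes in RefSeq 35 had a probe, out of 17178 genes with a probe in all. Psma8, the testis form of an alpha subunit, had no matched probe. The 35 genes comprised 7 alpha ring and 7 beta ring subunits of the core particle, 6 ATPases, 3 other base subunits and 8 lid subunits of the regulatory particle, 3 chaperones of base assembly, and Psmb11, the thymus form of a beta subunit.

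Helper T cells of C57BL/6 mice aged 7 weeks were profiled on 12 one-colour arrays. Cells lacking Dgcr8, a partner of Drosha in microRNA processing, were transfected with miR-29b (3 mice) or with a control miRNA (the same 3 mice), and wild-type cells with miR-29 inhibitors (3 other mice) or control inhibitors (the same 3 mice). All cells were activated through CD3 and CD28 for 65 hours, kept with IL-2 for a further 48 hours, electroporated on days 1 and 4, and harvested on day 5. Mice carry the numbers 2, 3 and 4 within each genotype, and a number does not link the genotypes. How Dgcr8 was deleted, and in which cells, is not given in the sources used here, and the Dgcr8-deficient cells of both groups share that deletion.

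The 26S proteasome degrades proteins tagged with ubiquitin. Its core particle stacks alpha rings around beta rings, and Psmb5, Psmb6 and Psmb7 carry the chymotrypsin-like, caspase-like and trypsin-like active sites. The regulatory particle recognises the tag, removes it and unfolds the substrate, through ubiquitin receptors such as Psmd4, the deubiquitinase Psmd14 and a ring of Psmc ATPases. In T cells the proteasome also yields peptides for MHC class I and takes part in NF-kappaB activation, and interferon gamma exchanges the catalytic subunits for the immunoproteasome forms.

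The transfected miR-29b and its relatives are shown because both treatments act on this family. The mature sequences are from RefSeq on GRCm38.p6, capitals mark bases 2 to 8, the seed that pairs with targets, and the 3 members share that seed. The labels do not say which members the inhibitors were directed at.
miR-29a-3p: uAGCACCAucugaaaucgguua
miR-29b-3p: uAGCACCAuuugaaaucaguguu
miR-29c-3p: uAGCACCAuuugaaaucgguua

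The promoters of 3 genes are shown next, for a member that fell with miR-29b (Psma7), a catalytic subunit (Psmb5) and a member lower in Dgcr8-deficient controls (Psmd14). Each run holds the 250 bases before the RefSeq start on GRCm38.p6, read along the strand of the gene. Capitals mark a match to TGACNNNGC, a core of the antioxidant response element that Nfe2l1 and Nfe2l2 bind, or to CCAAT, the box bound by NF-Y, on either strand.
Psma7 promoter, chr2:180042465-180042714, minus strand: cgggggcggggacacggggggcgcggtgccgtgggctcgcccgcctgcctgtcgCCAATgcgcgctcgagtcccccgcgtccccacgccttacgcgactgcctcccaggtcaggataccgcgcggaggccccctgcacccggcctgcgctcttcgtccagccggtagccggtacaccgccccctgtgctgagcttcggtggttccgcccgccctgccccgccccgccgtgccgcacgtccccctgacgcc
Psmb5 promoter, chr14:54617996-54618245, minus strand: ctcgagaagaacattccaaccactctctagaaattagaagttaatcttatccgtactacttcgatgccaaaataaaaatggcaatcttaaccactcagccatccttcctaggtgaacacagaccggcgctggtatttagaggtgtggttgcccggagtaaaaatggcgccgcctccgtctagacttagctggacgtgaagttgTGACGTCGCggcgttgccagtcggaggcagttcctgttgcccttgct
Psmd14 promoter, chr2:61711444-61711693, plus strand: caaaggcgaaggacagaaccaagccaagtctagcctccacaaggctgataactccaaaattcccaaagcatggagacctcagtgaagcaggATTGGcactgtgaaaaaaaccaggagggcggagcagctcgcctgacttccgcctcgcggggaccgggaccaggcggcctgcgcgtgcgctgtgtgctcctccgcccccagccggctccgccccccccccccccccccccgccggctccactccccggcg

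The motifs were searched on both strands from 250 bases before to 50 bases after the start. TGACNNNGC was found in 5 of 31 member promoters (16.1%), those of Psmb5, Psmb6, Psmc6, Psmd12 and Psmd9, against 12.4% of 32851 promoters. CCAAT was found in 12 of 31 (38.7%), against 37.4% of all. The 31 promoters belong to 29 of the 35 members, and the other 6 members had no entry. Psmd14 held a further pair of CCAAT matches on opposite strands after the start, which overlap each other. A match describes the letters and is not a measured binding site.

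A level is the log2 signal minus the 75th percentile of its own array, and a change is the fitted log2 ratio of groups of 3 arrays with its SE (limma). All 35 members passed the filter of being well above background on at least 3 of 12 arrays. On all 12 arrays 34 members were well above background, and Psmb11 on 10. By mean level these 34 lay between percentile 61.8 (Psmd9) and 98.7 (Psma2) of the genes tested, and Psmb11 at 11.4. The values given for all genes were not matched to the members by level. The level of Dgcr8 ran from -1.19 to -0.10 in Dgcr8-deficient cells and from -0.12 to 1.04 in wild-type cells, an overlap at the edge, and where its probe lies relative to the deleted part was not known. Of the helper T cell markers Cd3d, Cd3e, Cd3g, Cd5 and Cd28 had mean levels of 2.25 or higher in every group, and Cd4 lay near the 75th percentile. The arrays came from 4 slides and 2 scan days. Slide 4 alone was scanned on the second day and held Dgcr8-deficient mouse 4 and wild-type mouse 3, and both arrays of every mouse shared a slide. Outlier spots, which were left out, numbered 1458 for mouse 3 with miR-29b and 68 to 193 elsewhere.

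**Figure D1:**
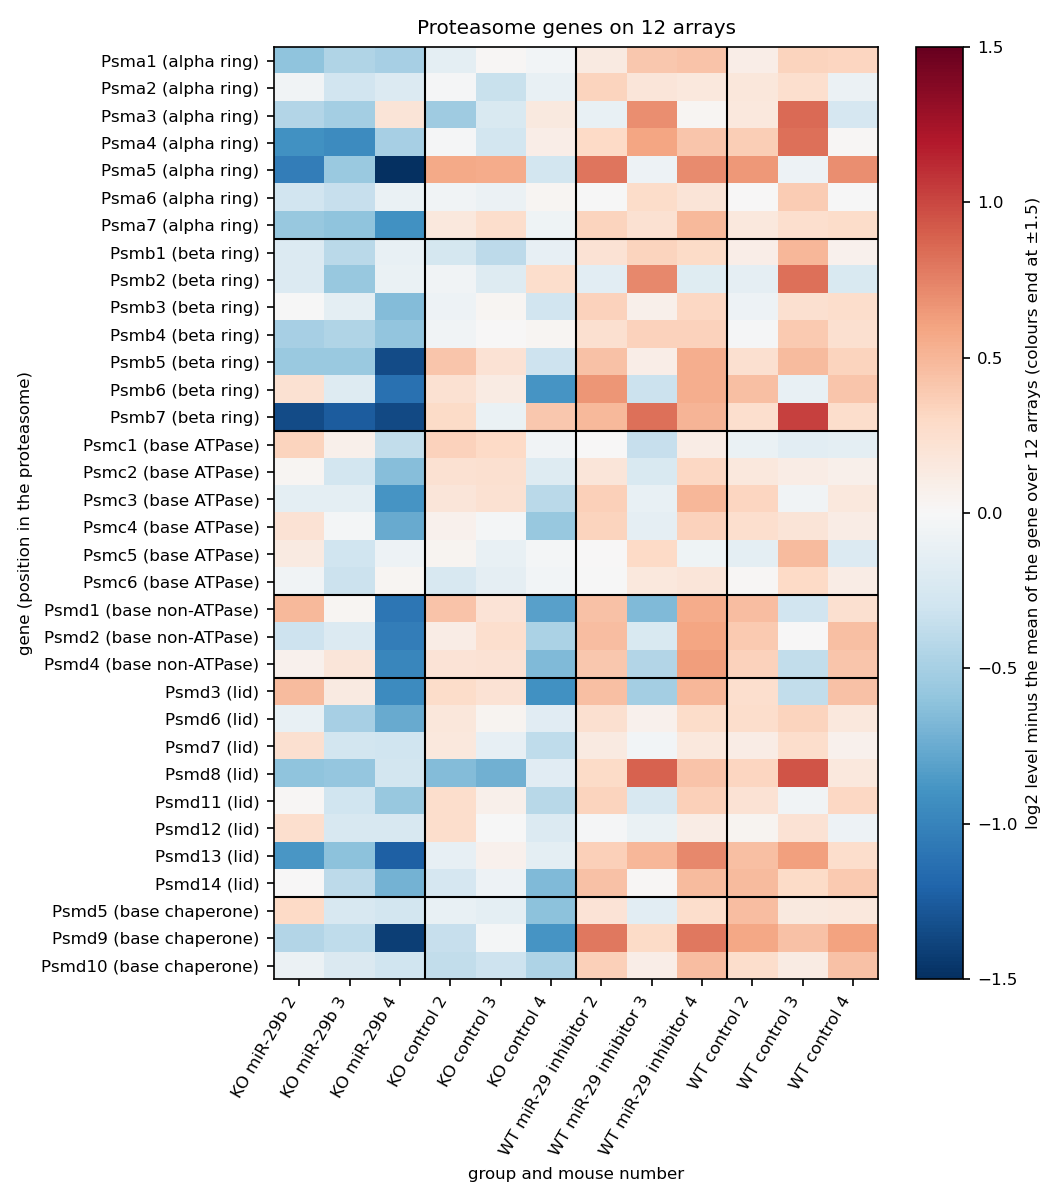
Levels of 34 proteasome genes (rows, by position in the particle) on 12 arrays (columns, by group and mouse), as log2 level minus the mean of the gene over all arrays. The core genes Psmb7, Psma5, Psma4 and Psma7 are lowest in the miR-29b columns, and Psmd1, Psmd3 and Psmd4 are low on the 4 arrays of Dgcr8-deficient mouse 4 and wild-type mouse 3.

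The first comparison asks what miR-29b does to these genes in the Dgcr8-deficient cells, whose own microRNAs were not measured here. Psmb7 and Psma7 fell and no member rose, so that 2 of 35 passed the threshold of adjusted p 0.05, where 2.28% of 14705 genes passed in either direction and 1.4% passed lower and 0.884% higher. Log2 changes were negative for 27 of 35 members, against 42.1% of all genes, for 13 of 14 core genes and for 13 of 17 regulatory genes. The median change was -0.38 over the core particle and -0.13 over the regulatory particle, against 0.07 over all genes tested. By subcomplex the medians were -0.47 for the alpha ring, -0.30 for the beta ring, -0.12 for the ATPases, -0.16 for the other base subunits, -0.06 for the lid and 0.18 for the base chaperones. Leaving out 1 array moved the regulatory median between -0.35 (without the control of mouse 4) and -0.03 (without the control of mouse 2). The regulatory median was -0.31, -0.21 and -0.05 without the miR-29b array of mouse 2, 3 or 4. Without 1 array the core median ran between -0.47 and -0.38. The difference between core and regulatory particle was not tested.

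Psmb7, the trypsin-like catalytic subunit, had levels of 1.72, 1.81 and 1.70 with miR-29b, against 3.34, 2.96 and 3.46 with control miRNA (mice 2, 3 and 4). The 3 miR-29b arrays were nearly equal and lay far under every other array of the study. Psmb7 fell by 1.51 ± 0.23 on the log2 scale, a linear ratio of 0.351 (limma, adjusted p = 0.00988). Without the control array of mouse 2 the adjusted p was 0.0508.

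Psma7, an alpha ring subunit, had levels of 4.82, 4.78 and 4.48 with miR-29b, against 5.54, 5.64 and 5.32 with control miRNA. The groups did not overlap, and the decrease was alike in the 3 mice (-0.72, -0.86 and -0.84). Psma7 fell by 0.81 ± 0.16 (adjusted p = 0.0298). This call was kept in 1 of 6 fits that left out 1 array, the one without the control of mouse 4, with changes of -0.90 to -0.70 and adjusted p of 0.0485 to 0.107. On the 6 arrays of the comparison alone neither gene passed (adjusted p = 0.153 for Psmb7 and 0.306 for Psma7).

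Psma5, also of the alpha ring, had levels of 4.01, 4.48 and 3.08 with miR-29b, against 5.61, 5.59 and 4.77 with control miRNA. Mouse 4 was lowest in both groups, and the change of -1.46 ± 0.41 did not pass (adjusted p = 0.103). With the mouse as a block, which compares both arrays of each mouse, it passed (adjusted p = 0.00294).

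Psmb5, the chymotrypsin-like subunit, had levels of 3.72, 3.72 and 2.92 with miR-29b, against 4.69, 4.48 and 3.96 with control miRNA. All miR-29b values lay below all control values, and mouse 4 was lowest in both groups. The change of -0.92 ± 0.26 did not pass (adjusted p = 0.115), and with the mouse as a block it did (adjusted p = 0.00979). It also passed with slide or scan day as a block and, without a block, in the authors' deposited values (adjusted p = 0.0468).

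Psmb6, the caspase-like subunit, had levels of 5.19, 4.76 and 3.84 with miR-29b, against 5.19, 5.08 and 4.07 with control miRNA. Its groups overlapped, and the change was -0.18 ± 0.42 (adjusted p = 0.945). Psmb6 passed in neither fit.

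In the regulatory particle Psmd4, a ubiquitin receptor, had levels of 4.21, 4.33 and 3.17 with miR-29b, against 4.35, 4.36 and 3.48 with control miRNA. Psmd14, the deubiquitinase of the lid, had levels of 4.20, 3.80 and 3.49 with miR-29b, against 3.94, 4.13 and 3.54 with control miRNA. Both overlapped between groups, with changes of -0.16 ± 0.40 and -0.04 ± 0.23 and adjusted p of 0.951 and 0.987. The brightest probe of Psmd14 gave -0.04 and its other probe -0.15.

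The largest positive changes were those of Psmb11 and of Psmd5, a base chaperone, and neither passed. Psmd5 had levels of 2.81, 2.27 and 2.24 with miR-29b, against 2.41, 2.37 and 1.90 with control miRNA, a change of 0.22 ± 0.22 (adjusted p = 0.789). Psmb11 had levels of -5.78, -3.86 and -5.95 with miR-29b, against -6.19, -5.36 and -5.77 with control miRNA. Its change of 0.58 ± 0.53 (adjusted p = 0.75) was -0.09 without the miR-29b array of mouse 3, the array with the most outlier spots.

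The mouse as a block enlarged the list. With it 11 of 35 members fell and none rose, among 3068 genes called (20.9% of those tested, 10.3% lower). The 11 were the core genes Psma1, Psma4, Psma5, Psma7, Psmb4, Psmb5 and Psmb7 and the regulatory genes Psmc3, Psmd2, Psmd6 and Psmd13, which are named because they passed. The change of Psmd13, a lid subunit, was -0.83 ± 0.19 (adjusted p = 0.055, blocked 0.0145) and was the most negative of the regulatory particle. Both probes of Psma4 gave similar values, -0.72 and -0.78. The other blocked calls outside the named genes had changes of -0.51 (Psmb4) to -0.40 (Psmc3).

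Without any model, the 3 miR-29b arrays lay below the 3 controls for 9 of 35 members (25.7%), against 7.3% of all genes. Of these 8 were core genes (Psma1, Psma4, Psma5, Psma6, Psma7, Psmb4, Psmb5 and Psmb7) and 1 was the lid gene Psmd13. Psmd10, a base chaperone also known as gankyrin, lay above (8.81% of all genes did), with a change of 0.18 ± 0.16 that did not pass. Within mice, 20 members were lower with miR-29b in all 3 mice, 1 was higher in all 3, and 14 were mixed, where 24% of all genes were lower and 34% higher in all 3 mice. The core median of the within-mouse changes was -0.34, -0.42 and -0.42 in mice 2, 3 and 4, and the regulatory median was -0.01, -0.22 and -0.18.

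The markers of helper T cells were summed over 6 genes on each array. Their linear level, with the array's 75th percentile as 1, was 259 to 335 with miR-29b and at most 245 with control miRNA. The groups did not overlap. A linear sum rests mostly on the brightest genes, here Cd5 and Cd3d (mean levels 7.08 and 6.63 with miR-29b). Cd5 changed by 0.44, Cd3g by 0.20, Cd28 by 0.19, Cd4 by 0.02 and Cd3e by -0.05. None of the 6 markers passed without a block. A block for the mouse gave Cd3d, with a change of 0.44 ± 0.16, an adjusted p of 0.0358 (limma, 0.227 without the block). The part of this in the proteasome values was not tested.

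**Figure D2:**
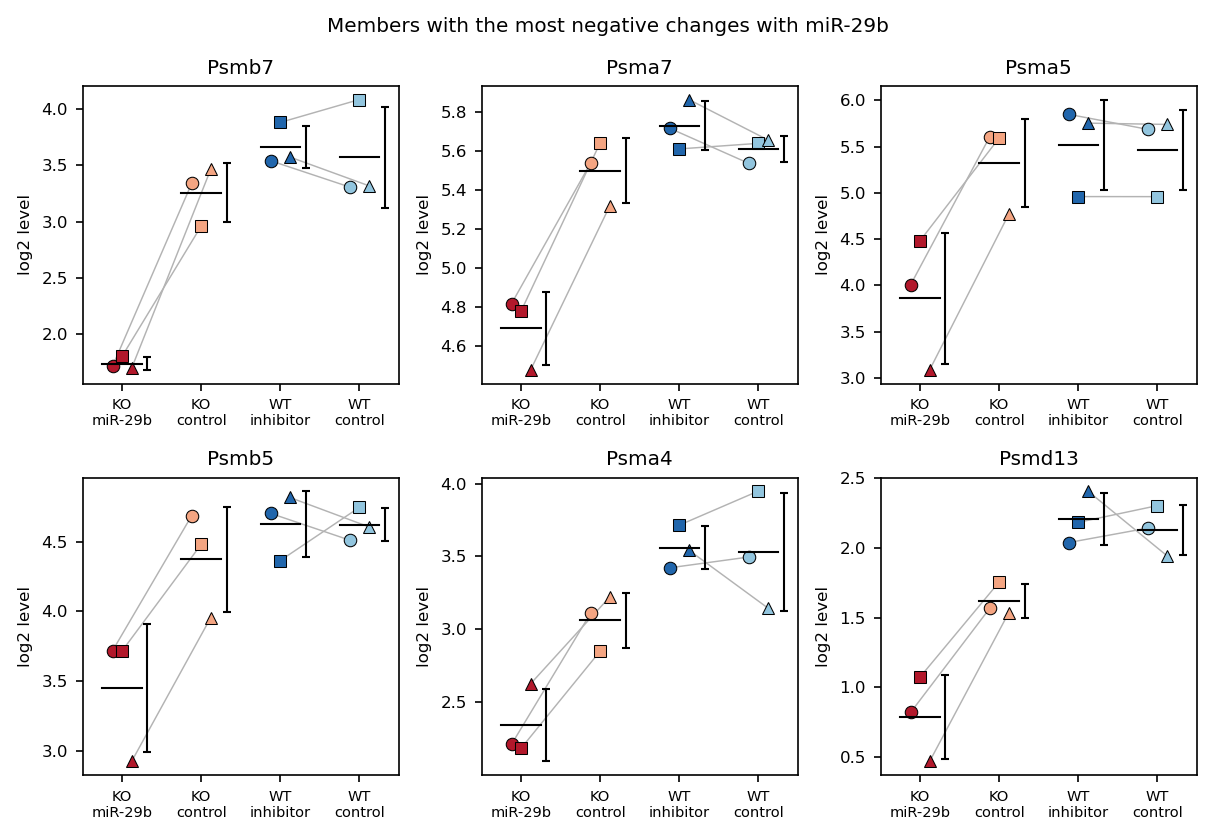
Log2 level of 6 members on each array by group, with circles, squares and triangles for mice 2, 3 and 4, lines joining both arrays of a mouse, bars for the group mean and error bars for the SD (n = 3). In the Dgcr8-deficient cells each gene is lower with miR-29b in every mouse, and in the wild-type cells the lines of Psmb7, Psma7, Psmb5, Psma4 and Psmd13 run in both directions.

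The second comparison asks whether blocking miR-29 moves these genes in normal cells. No member passed, and 0% of 14705 genes passed (limma, 0 genes, 63 at an unadjusted p under 0.05). The mouse as a block also gave 0 genes (502 at an unadjusted p under 0.05). Member changes ran from -0.15 to 0.12, with 22 of 35 positive, against 55.2% of all genes, and 0 members had an unadjusted p under 0.05. The median was 0.06 over the core particle and -0.01 over the regulatory particle, against 0.02 over all genes.

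Psmb7 had levels of 3.54, 3.88 and 3.57 with miR-29 inhibitors, against 3.30, 4.08 and 3.32 with control inhibitors (mice 2, 3 and 4), a change of 0.09 ± 0.23. Psmb5 had levels of 4.70, 4.37 and 4.82 with inhibitors, against 4.51, 4.75 and 4.61 with control inhibitors, a change of 0.01 ± 0.26. Psmb6 had levels of 5.61, 4.63 and 5.50 with inhibitors, against 5.41, 4.84 and 5.37 with control inhibitors, a change of 0.04 ± 0.42. For all 3 catalytic genes mice 2 and 4 moved up and mouse 3 moved down.

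Psmd4 had levels of 4.55, 3.71 and 4.77 with inhibitors, against 4.49, 3.77 and 4.56 with control inhibitors, and Psmd14 had 4.64, 4.22 and 4.68, against 4.68, 4.49 and 4.59. The most negative changes were those of Psmd5 (-0.15 ± 0.22) and Psmd14 (-0.07 ± 0.23), and the most positive those of Psma7 (0.12 ± 0.16) and Psma2 (0.11 ± 0.16), all within 1 SE of 0. The groups overlapped for all 35 members, where 1.74% of all genes lay wholly higher and 1.14% wholly lower. Psma7 had levels of 5.72, 5.61 and 5.87 with inhibitors, against 5.54, 5.64 and 5.66 with control inhibitors. Psma2 had 6.69, 6.55 and 6.52 with inhibitors, against 6.53, 6.62 and 6.27 with control inhibitors. Psmd5 had 2.72, 2.35 and 2.78 with inhibitors, against 2.98, 2.67 and 2.67 with control inhibitors.

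The direction differed between mice for both particles. The core median of the within-mouse changes was 0.16, -0.13 and 0.21 in mice 2, 3 and 4, and the regulatory median 0.03, -0.19 and 0.19, while the median over all genes was 0.06, 0.02 and 0.01. Of 35 members 2 moved the same way in all 3 mice, both up, and 33 were mixed, where 14% of all genes moved up and 8.67% down in all 3 mice.

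The miR-29b change and the inhibitor change were also set against each other in one model. Their difference passed for 28 genes (0.19%, 0.17% lower and 0.0204% higher) and for 0 members, with Psmb7 closest (-1.61 ± 0.33, adjusted p = 0.0961). With the mouse as a block 888 genes passed (6.04%, 3.96% lower and 2.07% higher), among them 4 members, all of the core: Psmb7, Psma5, Psma7 and Psma1. The treatments differ in genotype and in agent (an added miRNA or inhibitors), which cannot be told apart here.

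**Figure D3:**
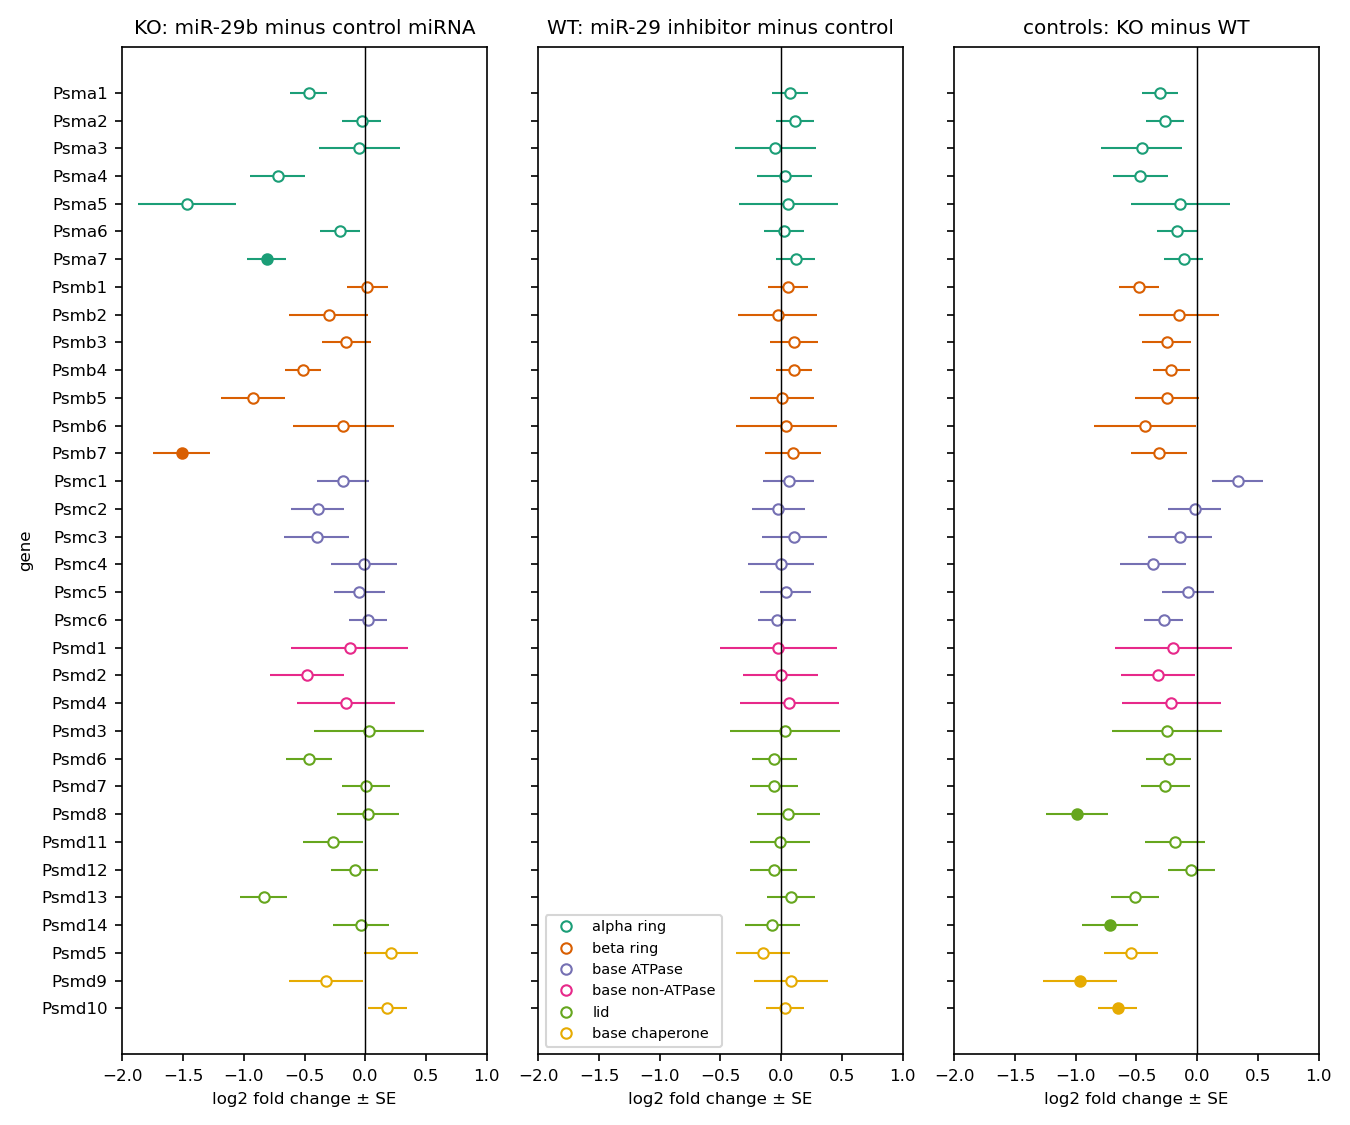
Log2 fold change ± SE (limma, n = 3 a group) of 34 members, coloured by position, in the 3 comparisons, with filled points for adjusted p under 0.05 without a block. With miR-29b the core genes spread down to -1.51, with inhibitors all points lie between -0.15 and 0.12, and between control cells nearly all lie below 0.

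The third comparison sets control-transfected Dgcr8-deficient cells against control-transfected wild-type cells. The controls also differed in kind, a miRNA or inhibitors, so genotype and control agent cannot be told apart, and this comparison shares the Dgcr8-deficient controls with the first. The members Psmd8, Psmd9, Psmd10 and Psmd14 were lower in Dgcr8-deficient cells and none was higher. That is 4 of 35 members, where 21.9% of genes passed in either direction (12.4% lower and 9.51% higher), so the share of members called was no larger than that of all genes. None of the 4 was of the core particle. Changes were negative for 33 of 35 members, against 54.8% of all genes, with Psmc1 and Psmb11 the exceptions.

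Psmd8, a lid subunit, had levels of 2.64, 2.57 and 3.13 in Dgcr8-deficient controls, against 3.62, 4.24 and 3.46 in wild-type controls. It fell by 0.99 ± 0.26 (log2, adjusted p = 0.0187), and by 0.97 and 1.12 in slides 2 and 4, which carried arrays of each genotype. The groups did not overlap. It passed in 3 of 6 fits without 1 array and was lost without Dgcr8-deficient control 2 or 3 or wild-type control 3 (adjusted p up to 0.0646).

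Psmd10 had levels of 0.65, 0.71 and 0.56 in Dgcr8-deficient controls, against 1.29, 1.14 and 1.46 in wild-type controls. It fell by 0.66 ± 0.16 (adjusted p = 0.0137), with changes of -0.64 and -0.58 within slides. It passed in 5 of 6 fits without 1 array, the exception being the fit without wild-type control 4 (adjusted p = 0.0597).

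Psmd14 had levels of 3.94, 4.13 and 3.54 in Dgcr8-deficient controls, against 4.68, 4.49 and 4.59 in wild-type controls. It fell by 0.72 ± 0.23 (adjusted p = 0.047), with changes of -0.73 and -0.95 within slides, and its other probe gave -0.79. Psmd9, another base chaperone, had levels of 0.41, 0.73 and -0.12 in Dgcr8-deficient controls, against 1.35, 1.20 and 1.37 in wild-type controls. It fell by 0.96 ± 0.31 (adjusted p = 0.0458), with changes of -0.93 and -1.32 within slides, but its other probe gave -0.13, so its probes disagree. It did not pass with normexp background correction (adjusted p = 0.0578) or in the authors' deposited values (adjusted p = 0.0528). The calls of Psmd14 and Psmd9 were kept in 1 of 6 fits without 1 array, the fit without Dgcr8-deficient control 3, and were lost without any of the other 5 arrays (adjusted p up to 0.156 for Psmd14 and 0.153 for Psmd9). On the 6 control arrays alone Psmd9 passed, and Psmd8, Psmd10 and Psmd14 did not. Without the filter on dim probes Psmd8 and Psmd10 passed, and Psmd14 and Psmd9 did not.

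The third base chaperone, Psmd5, had levels of 2.41, 2.37 and 1.90 in Dgcr8-deficient controls, against 2.98, 2.67 and 2.67 in wild-type controls, and did not pass (-0.55 ± 0.22, adjusted p = 0.113). All 3 base chaperones thus had non-overlapping groups. Over all members, Dgcr8-deficient controls lay below wild-type controls for 10 of 35 (28.6%), against 21.3% of all genes. Psmc1, a base ATPase, lay above (15.4% of all genes did), with levels of 5.22, 5.18 and 4.83 in Dgcr8-deficient controls, against 4.78, 4.72 and 4.73 in wild-type controls. Its change of 0.33 ± 0.21 did not pass (adjusted p = 0.324), but in the authors' deposited values it passed as higher (0.50, adjusted p = 0.0373).

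The catalytic genes did not pass. Psmb5 changed by -0.25 ± 0.26, Psmb6 by -0.43 ± 0.42 and Psmb7 by -0.31 ± 0.23, and Psmd4 by -0.21 ± 0.40. Leaving out 1 array moved them between -0.40 and -0.04 for Psmb5, -0.64 and -0.08 for Psmb6 and -0.45 and -0.06 for Psmb7. Within slide 2 Psmb5 and Psmb7 differed by 0.18 and 0.03, and within slide 4 by -0.79 and -0.62. Psmb11, at 0.49 ± 0.53, was well above background on 3 Dgcr8-deficient and 2 wild-type controls.

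Medians were -0.26 over the core particle and -0.24 over the regulatory particle, against -0.07 over all genes. Within slide 2 they were -0.07 and -0.09, against -0.15 over all genes, and within slide 4 they were -0.54 and -0.51, against -0.08. Both particle medians lay below the median of all genes within slide 4 and not within slide 2. Leaving out 1 array moved the core median between -0.33 and -0.19 and the regulatory median between -0.35 (without Dgcr8-deficient control 2) and -0.08 (without Dgcr8-deficient control 4). The core median was -0.12 with quantile normalization, against -0.09 over all genes, and -0.10 in the authors' deposited values, against -0.05. With normexp background correction the median over all genes was -0.23, and the core and regulatory medians of -0.22 and -0.20 then lay level with it. With slide as a block 11 members (31.4%) passed, all lower, where 41.7% of all genes passed in either direction and 24.7% passed lower. With scan day as a block 10 members (28.6%) passed, all lower, against 39.7% and 23.6% of all genes.

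Markers of B cells moved with the genotype. Cd79a, a chain of the B cell receptor complex, had a mean level of -3.69 in Dgcr8-deficient controls and -5.15 in wild-type controls, a change of 1.46 ± 0.20 (limma, adjusted p = 0.000662). Ms4a1, which encodes CD20, had a mean level of 1.07 in Dgcr8-deficient controls and -4.81 in wild-type controls, a change of 5.88 ± 0.58 (adjusted p = 7.98e-05). The part of this in the proteasome values was not tested. With miR-29b neither gene passed (adjusted p = 0.644 and 0.892). Of the 6 helper T cell markers 1 passed between control cells, where 21.9% of all genes did. This was Cd28, higher in Dgcr8-deficient controls by 1.26 ± 0.40 (limma, adjusted p = 0.0447). The other helper T cell markers had changes from -0.42 (Cd3d) to 0.18 (Cd4). In these bulk samples a change in the share of a cell type and a change of RNA per cell cannot be told apart.

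**Figure D4:**
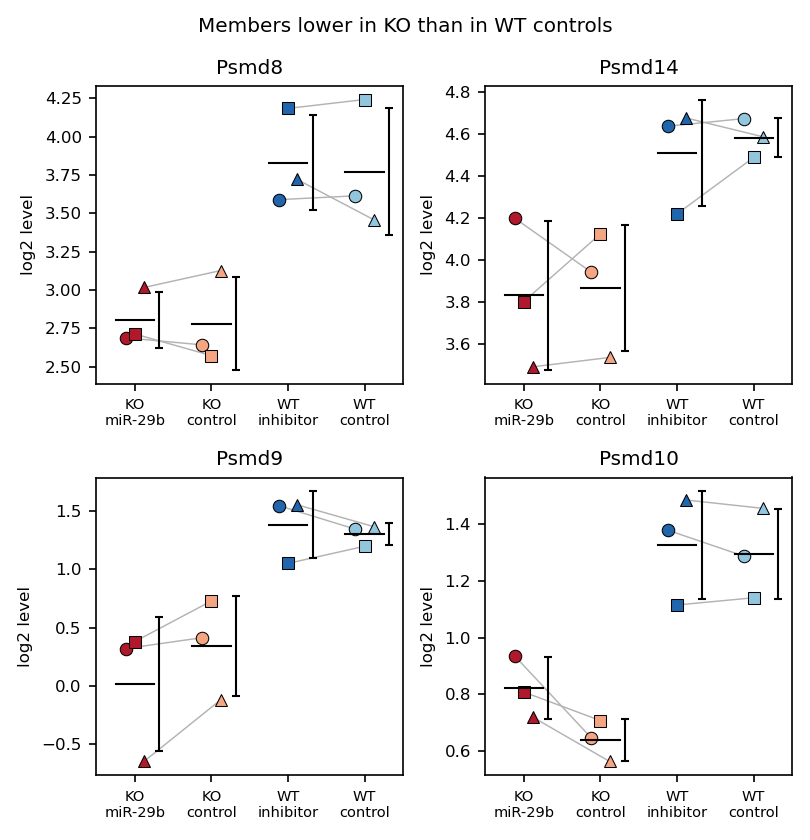
Log2 level of the 4 members that passed between control cells, on each array by group, with circles, squares and triangles for mice 2, 3 and 4, bars for the mean and error bars for the SD (n = 3). Both Dgcr8-deficient groups lie below both wild-type groups for all 4 genes, which were picked because they passed. For Psmd14 they nearly meet (4.20 against 4.22), and for Psmd8 the wild-type mouse 3 is highest.

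The arrays of the second scan day were also set against those of the first. Psmd1, Psmd3 and Psmd4 were lower on all 4 arrays of the second day than on all 8 of the first, by -1.07, -1.03 and -0.92, that is 3 of 35 members, where 8.61% of genes lay below in this way and 5.83% above. The day means of 11 members (31.4%) differed by more than 0.5, against 35.8% of all genes, downward also for Psmb6 (-0.92) and Psma5 (-0.90) and upward for Psma3 (0.71), Psmb2 (0.64) and Psmd8 (0.52). These genes were picked after their values were seen. Both arrays of each mouse share the day, so that the miR-29b and inhibitor comparisons each hold it in both of their groups. Mouse and scan day cannot be told apart.

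**Figure D5:**
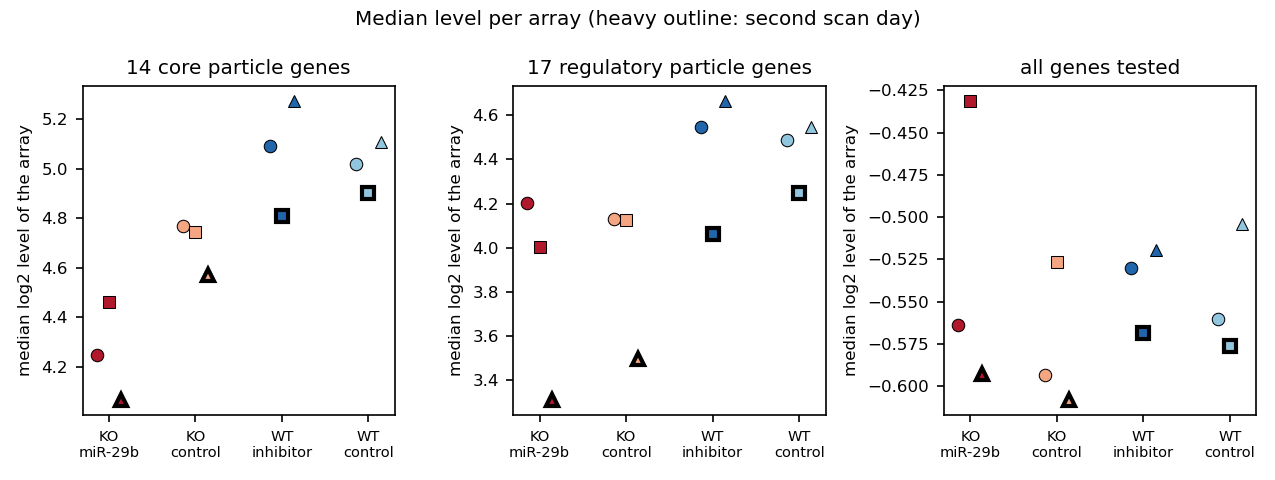
Median log2 level per array of the 14 core genes, the 17 regulatory genes and all genes tested, by group, with circles, squares and triangles for mice 2, 3 and 4 and a heavy outline for the second scan day. The core medians of the miR-29b arrays (4.07 to 4.46) lie below those of their controls (4.57 to 4.77), and the second-day arrays are lowest of their group in the core and regulatory panels.

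Other genes of the pathway were taken as fixed lists. With miR-29b 2.28% of all genes passed without a block and 20.9% with the mouse as a block. With miR-29b 0 of 3 immunoproteasome subunits, 0 of 5 activators and inhibitors, 0 of 5 core assembly chaperones, 0 of 5 other regulatory particle partners, 0 of 5 ubiquitin genes and 0 of 7 shuttle factors passed. Of 6 regulators of proteasome gene transcription Nfyc, a subunit of NF-Y, fell by 0.79 ± 0.17 (adjusted p = 0.0375), and the list median was 0.10. Rps27a, which encodes a ubiquitin fused to a ribosomal protein, had -0.74 ± 0.18 (adjusted p = 0.0666, blocked 0.0251). Psme4, the activator PA200, had -0.39 ± 0.29 (adjusted p = 0.653, blocked 0.0176), and Nploc4, a cofactor of the unfoldase Vcp, had -0.32 ± 0.36 (adjusted p = 0.816, blocked 0.0426). The immunoproteasome subunits Psmb8, Psmb9 and Psmb10 had changes of 0.16, 0.07 and -0.07, where their constitutive counterparts Psmb5, Psmb6 and Psmb7 had -0.92, -0.18 and -1.51. With inhibitors none of these lists had a member that passed.

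Between control cells the lists moved in both directions, where 21.9% of all genes passed, 12.4% lower and 9.51% higher. Of the 5 core assembly chaperones 4 were lower in Dgcr8-deficient cells, Psmg1 (-1.28 ± 0.20, adjusted p = 0.00127), Psmg3 (-1.37 ± 0.39, 0.0327), Psmg4 (-0.62 ± 0.17, 0.0227) and Pomp (-0.69 ± 0.21, 0.0408), and the list median was -0.69. Psmb10, the immunoproteasome counterpart of Psmb7, was higher by 1.12 ± 0.15 (adjusted p = 0.000482), and Psmb9 had 0.47 ± 0.16 (adjusted p = 0.0565). Psme1, a subunit of the interferon-induced PA28 activator, was higher by 0.67 ± 0.16 (adjusted p = 0.0144), and Psmf1, an inhibitor of the proteasome, was lower (-0.82 ± 0.14, adjusted p = 0.00238). Sem1, a small lid subunit outside the name rule, was lower (-1.17 ± 0.22, adjusted p = 0.00381). Nfe2l2 was higher by 1.63 ± 0.15 (adjusted p = 5.5e-05) and Nfyb was lower (-0.98 ± 0.16, adjusted p = 0.00194). None of the 5 ubiquitin genes and none of the 7 shuttle factors passed.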

How the data were processed

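RNA of 12 cell samples was hybridised to Agilent whole mouse genome 4x44K arrays. The deposited scanner files give intensity per spot, extracted with Feature Extraction 10.5.1.1 per the file headers, background-subtracted and not scaled between arrays. Processed log2 values were deposited by the authors as well, and the submitters' processing notes name limma. The number of arrays, 3 a group, limits the precision.

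Outlier and control spots were left out, and levels are the mean log2 processed signal of each probe less the array's 75th percentile. Probes well above background on at least 3 of 12 arrays were kept (32200 of 41174). The brightest kept probe stood for a gene (14705 genes, 4976 with several probes), symbols coming from RefSeq accessions (24844 probes with a symbol). Of the members 10 had several probes. One limma 3.58.1 fit (R 4.3.3) of 4 groups on all 12 arrays gave the tests, adjusted by Benjamini-Hochberg over all genes at 0.05. Figures were drawn with matplotlib 3.10.9.

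The design text says that both arrays of a genotype and number come from 1 mouse. Deviations of such arrays from their group means correlated at 0.65, 0.61 and 0.75 in Dgcr8-deficient cells and at 0.45, 0.73 and 0.42 in wild-type cells, which also share slides. Without the block, p-values treat both arrays of a mouse as independent. Between genotypes equal numbers are different mice (0.27, -0.28 and -0.35). Controls of Dgcr8-deficient mouse 4 and wild-type mouse 3, different mice on the same slide and scan day, correlated at 0.53. That is above the values of 0.45 and 0.42 for 1 wild-type mouse, so these correlations do not separate mouse from slide.

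The alternatives were quantile normalization, normexp (offset 50) on the median spot signal, since the files hold no mean signal, the authors' log2 values, other filters and probe rules, blocks, the 6 arrays of a comparison alone, and leaving out each array. The fit was tested on simulated data with independent noise on each array, so effects shared by a mouse, slide or scan day were not part of that test. The full values are given for Psmb5, Psmb6, Psmb7, Psmd4, Psmd14, members past the threshold, and the 2 largest rises and falls of each comparison. Members and lists were chosen with earlier results of these data known. The result of a further marker gene is not reported here.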

Additional observations from a re-analysis of the deposited data

Results flagged for a closer look

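For 4 core particle genes the change with miR-29b in Dgcr8-deficient cells differed from the change with miR-29 inhibitors in wild-type cells, by an interaction term with the mouse as a block (limma, n = 3 mice a genotype). The difference of log2 changes was -1.61 for Psmb7 (adjusted p = 0.0181), -1.52 for Psma5 (adjusted p = 0.0143), -0.93 for Psma7 (adjusted p = 0.0178) and -0.54 for Psma1 (adjusted p = 0.0405). All 3 Dgcr8-deficient mice were lower with miR-29b for each of these genes. With this block 4 of 35 members (11.4%) passed for the difference, where 6.04% of all genes passed, 3.96% lower and 2.07% higher. Without the block none of the 4 passed, with adjusted p of 0.0961, 0.516, 0.164 and 0.552 in the same order.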

How the results depend on the processing

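With 3 arrays a group, calls near the threshold moved with the choice of fit. The cause was not tested. With miR-29b, 336 genes and 2 members passed (130 higher and 206 lower, against 60 and 178 with normexp), 571 and 4 in the authors' values, 3068 and 11 with the replicate block (mouse), 2466 and 9 with slide as a block, 1839 and 9 with scan day as a block, and 0 and 0 on the 6 arrays alone (1358 genes at an unadjusted p under 0.05), where fewer arrays enter the fit. Between control cells, 3216 genes and 4 members passed, 6130 and 11 with slide and 5836 and 10 with scan day as a block, 2917 and 2 without the filter (17% of genes and 5.71% of members) and 2388 and 1 on the 6 arrays alone (16.2% and 2.86%). The member left on the 6 arrays alone was Psmd9, whose probes disagree. For the difference of effects, 28 genes and 0 members passed, 92 and 1 in the authors' values, 888 and 4 with the replicate block, 617 and 3 with slide, 446 and 3 with scan day, 62 genes with a filter of 12 arrays and 14 with the mean over probes. Beyond these, and the loss of Psmd14 between controls with the mouse as a random block (adjusted p = 0.0745), the replicate block changed no call among the named members. Without 1 array, the miR-29b comparison gave 103 to 276 genes and 0 to 2 members, and the genotype comparison 2319 to 2733 genes and 1 to 3 members. Some changes turned sign with the processing. Inhibitor changes of Psmb5 and Psmb6, near 0, went to -0.0207 and -0.0017 with quantile normalization and to -0.0318 and -0.0053 in the authors' values. The genotype change of Psmb11, 0.49 ± 0.53 in the main fit, went to -0.28 with normexp and -0.0793 with slide as a block. Without 1 array, the miR-29b changes ran from -0.54 to 0.20 for Psmb6, -0.45 to 0.21 for Psmd4, -0.22 to 0.13 for Psmd14 and -0.0882 to 0.95 for Psmb11. The inhibitor changes then ran from -0.0874 to 0.14 for Psmb5, -0.14 to 0.35 for Psmb6, -0.0363 to 0.35 for Psmb7, -0.18 to 0.38 for Psmd4 and -0.15 to 0.0738 for Psmd14, and the genotype change from -0.46 to 0.0794 for Psmd4. The core median with miR-29b stayed between -0.42 and -0.36 in the alternatives that kept all arrays, and between -0.47 and -0.38 without 1 array, where the regulatory median ran from -0.35 to -0.03.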
